A study of Mus musculus with 4 samples.

Results

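The genes described here encode the subunits of oxidative phosphorylation, with cytochrome c and some assembly factors. They were chosen by name: every gene on the array whose symbol starts with Nduf, Uqcr, Cox4i, Cox5, Cox6, Cox7, Cox8 or Atp5, or is *Sdha*, *Sdhb*, *Sdhc*, *Sdhd* or *Cycs*. The rule found 93 genes of 24741, measured by 145 distinct probes on 154 spots. Of these, 38 belonged by name to complex I, 7 were complex I assembly factors (Ndufaf), 4 belonged to complex II, 8 to complex III, 1 was cytochrome c, 17 belonged to complex IV and 15 to complex V. The other 3 carry Atp5 names without being subunits of the enzyme: *Atp5s*, *Atp5sl* and the pseudogene *Atp5c1-ps*. *Cox5b* has no probe under that name and was not analysed here.

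RNA of C57BL/6 mouse embryos was hybridised to 1-colour Agilent arrays, with 1 array for each of 4 groups: WT at E8.5, *Dyrk2*-/- at E8.5, WT at E10.5 and *Dyrk2*-/- at E10.5. The tissue was the whole embryo, and all 4 arrays lie on 1 slide. The study made its knockout lines with the CRISPR/Cas9 nickase system; which line each array came from, and how many embryos went into each RNA, is not given. Between 30226 and 31943 of the 56604 probes on an array were well above background, by the scanner software's own call.

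Oxidative phosphorylation takes place at the inner mitochondrial membrane. Complexes I and II pass electrons from NADH and succinate to ubiquinone, complex III passes them to cytochrome c, and complex IV passes them to oxygen; complexes I, III and IV pump protons, and complex V uses the proton gradient to make ATP. Complex II is encoded in the nucleus alone, the others in part by mitochondrial DNA, and several complex IV subunits have a second isoform that is best known from heart and skeletal muscle, testis or low oxygen. Early mouse embryos rely strongly on glycolysis, and their mitochondria mature during organogenesis, as the heart and circulation form.

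Values are log2 signals relative to the 75th percentile of the array's probes, so 0 is the signal below which 75 percent of them lie. A gene is represented by its brightest probe, and a difference of log2 signals compares 1 probe between arrays, never a probe with another. A gene counts as tested in a comparison when it was well above background on at least 1 of its 2 arrays, and as called when the arrays differed 1.5-fold or more. With 1 array per group there is no replicate check of a single comparison and no p between genotypes at a stage. The spread between spots of the same probe within an array gives a standard deviation of a log2 difference of 0.15 for the genotypes at E8.5, 0.11 at E10.5, 0.12 for the stages in WT and 0.14 for the stages in *Dyrk2*-/-; it does not include variation between embryos. In whole-embryo RNA, fewer cells of a type and less RNA per cell cannot be told apart.

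Pairs of values below give WT first and *Dyrk2*-/- second. *Dyrk2* itself read 0.06 and 0.76 at E8.5, then −0.31 and 0.34 at E10.5. The arrays labelled *Dyrk2*-/- had the higher *Dyrk2* signal at both stages, by 1.62-fold and by 1.57-fold. The published alleles are small deletions, so this probe does not check the labels, and directions between genotypes are given as between arrays labelled WT and *Dyrk2*-/-. Sex was not given either, and 1 array stood apart in sex-chromosome genes. *Xist*, transcribed from the inactive X chromosome, exceeded background on 1 array, the E10.5 one labelled *Dyrk2*-/-; its signal there was above that of WT by at least 20.4-fold. The Y-linked *Ddx3y*, *Eif2s3y*, *Kdm5d* and *Uty* did so on each array but that. Of the members, 3 lie on the X chromosome, and between genotypes at E10.5 their log2 differences were 0.0 for *Ndufa1*, −0.06 for *Ndufb11* and 0.05 for *Cox7b*.

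Most members were bright, and how far they varied depended on the scaling. Of the 93, 90 were well above background on all 4 arrays, *Cox8b* was so on 2, both at E10.5, and *Cox7b2* and *Cox8c* on 0. Over the 4 arrays the signal ranged less than 1.5-fold for 75 of the 90 (83.3%), and for 57.7% of the 14580 genes above background on all arrays. This was 73 (81.1%) against 59.8% with quantile normalization, 53 (58.9%) against 47.8% without scaling, and 4 (4.44%) against 21.7% with spike-in scaling. With the 75th percentile the median range was 0.29 log2 units for members and 0.51 for all genes. *Ndufv1*, the flavoprotein subunit that takes electrons from NADH, had the smallest range of the 90 by brightest probes, at 0.02: it read 5.23 and 5.22 at E8.5, then 5.24 and 5.22 at E10.5. Its second, dimmer probe varied more, with 2.87 and 3.15, then 2.77 and 2.98. On that scale the range stayed under 1.5-fold for 33 of 38 complex I genes, 4 of 4 of complex II, 8 of 8 of complex III, 9 of 14 of complex IV and 14 of 15 of complex V.

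Between genotypes at E8.5, 2 of 90 tested members were called (2.22%), against 9.66% of all 15790 genes tested. *Cox6a2* was higher on the array labelled *Dyrk2*-/- (background 4.23% called higher) and *Ndufv2* was lower (background 5.43% called lower). The share called is below that of all genes and is not a result about the members. Most of the small differences had 1 direction: 69 of the 90 had the lower signal in *Dyrk2*-/- (61 to 89 under the other scalings and background corrections), against 8660 of the 15790 genes, and their median was −0.15, or −0.12 relative to the median of all genes. The relative median was −0.07 with quantile normalization and −0.17 with another background correction (normexp), a shift smaller than 1.5-fold with the same sign. Here and below, spike-in scaling and no scaling shift a whole array alike. They cannot change a median relative to all genes, so they are no check of it. The deposited table lies close to the quantile-normalized values and adds little as a further check. Among the 90, that array held the lowest of the 4 values for 43 (47.8%), against 21.5% of all genes; with quantile normalization it was 52, against 23.9%, with spike-in scaling 82 (91.1%), against 77.4%, and without scaling 78 (86.7%), against 59.6%.

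At E10.5, 1 of 91 tested members was called (1.1%), against 6.77% of 16123 genes. It was *Cox6c*, lower on the array labelled *Dyrk2*-/- (background 4.01% called lower, 2.76% called higher). The members' median was 0.02, or 0.03 relative to all genes, and between 0.01 and 0.03 under the other scalings; the median not set against all genes turned to −0.11 without scaling. In *Dyrk2*-/- the signal was higher for 53 of the 91 and lower for 38, but 46 and 45 with quantile normalization, 47 and 44 with the deposited table, 82 and 9 with spike-in scaling and 15 and 76 without scaling, so no direction is given at E10.5. The difference between the stages was not tested.

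From E8.5 to E10.5 in WT, 7 of 91 members were called (7.69%), against 37.6% of 16456 genes. Higher at E10.5 were 3, *Cox8b*, *Cox6a2* and *Cox6b2* (background 19.3%), and lower were 4, *Ndufa4l2*, *Atp5sl*, *Cycs* and *Atp5s* (background 18.3%), of which *Cycs* and *Atp5s* were under 1.5-fold in some other settings. In *Dyrk2*-/-, 9 of 91 were called (9.89%), against 31.4% of 16211 genes. Higher were 6, *Cox8b*, *Cox6a2*, *Cox6b2*, *Ndufa12*, *Atp5l* and *Ndufb9* (background 17.1%), and lower were 3, *Ndufa4l2*, *Cox4i2* and *Atp5s* (background 14.3%). The lists share 5 genes in the same direction, 71.4% of the WT list and 55.6% of the *Dyrk2*-/- list; over all genes tested the shares were 62.5% and 75.9%. The members' median between stages was −0.1 in WT, −0.01 relative to all genes, a sign that turned to 0.16 with quantile normalization or the deposited table and to 0.01 with another background correction (normexp). In *Dyrk2*-/- it was 0.07, or 0.14 relative to all genes, and between 0.14 and 0.22 under the other scalings.

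The scaling decides how many members pass 1.5-fold. Scaling by spike-in controls moved the median of all genes to −0.58 between genotypes at E8.5, 0.15 at E10.5, −0.16 between stages in WT and 0.57 in *Dyrk2*-/-; without scaling it was −0.29, −0.15, 0.09 and 0.24. The split of calls moved with it. At E8.5 it was 1 higher and 1 lower, but 0 higher and 64 lower with spike-in scaling, where 1.17% of all genes were called higher and 48.7% lower. Without scaling it was 0 and 11, against 2.05% and 14.1% of all genes, and with quantile normalization, the deposited table or the mean over a gene's probes it was 1 and 0. Between stages in WT it was 3 higher and 4 lower, but 3 and 8 with spike-in scaling (17.6% and 21.4% of all genes), 4 and 2 without scaling (24.5% and 12.4%) or with normexp (12.2% and 13.1%), and 5 and 4 with quantile normalization or the deposited table (19.2% and 16.6% with each). In *Dyrk2*-/- it was 6 and 3, but 66 and 1 with spike-in scaling (49.0% and 5.11%) and 14 and 2 without scaling (27.4% and 7.82%).

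A fit of limma across all genes took stage and genotype together over the 4 arrays, with 1 residual degree of freedom and Benjamini-Hochberg adjustment over 16012 genes above background on at least 2 arrays. For genotype it called 0.0% of all genes at an adjusted p under 0.05 (1.99% without scaling, 1.34% with no filter, and between 0.0749% and 0.144% with normexp, quantile normalization, the deposited table or spike-in scaling) and 0 of 91 members, a count that was 0 in each of those settings too; at an unadjusted p under 0.05 there were 750 genes in all and 2 members (20 members and 2688 genes without scaling), *Ndufa9* (log2 −0.31) and *Ndufb6* (−0.26), with the lower signal in *Dyrk2*-/- at both stages, at an adjusted p of 0.956 and 0.999. For stage it called 42.2% of all genes and 16 of 91 members (17.6%). Of the 16, 7 were higher at E10.5 and 9 lower, each in both genotypes on the 75th percentile scale. With spike-in scaling, 88 of the 91 members were higher at E10.5 in *Dyrk2*-/- and 3 lower. Most of the 9 falls thus turned to rises there. *Cox8b*, among the 7, was not above background at E8.5, and in a fit of the genes above background on all arrays 6 members rose and 9 fell, 15 of 90 (16.7%) against 40.2% of all genes. Other settings moved this count: quantile normalization and the deposited table gave 30 each (33.0%), 23 higher and 7 lower, against 40.0% and 40.3% of all genes. No scaling gave 22 (24.2%), 19 higher and 3 lower, against 40.6%; spike-in scaling gave 4 (4.4%) against 10.8%, and moderation without the intensity trend gave 8 (8.79%) against 27.7%.

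**Figure D1:**
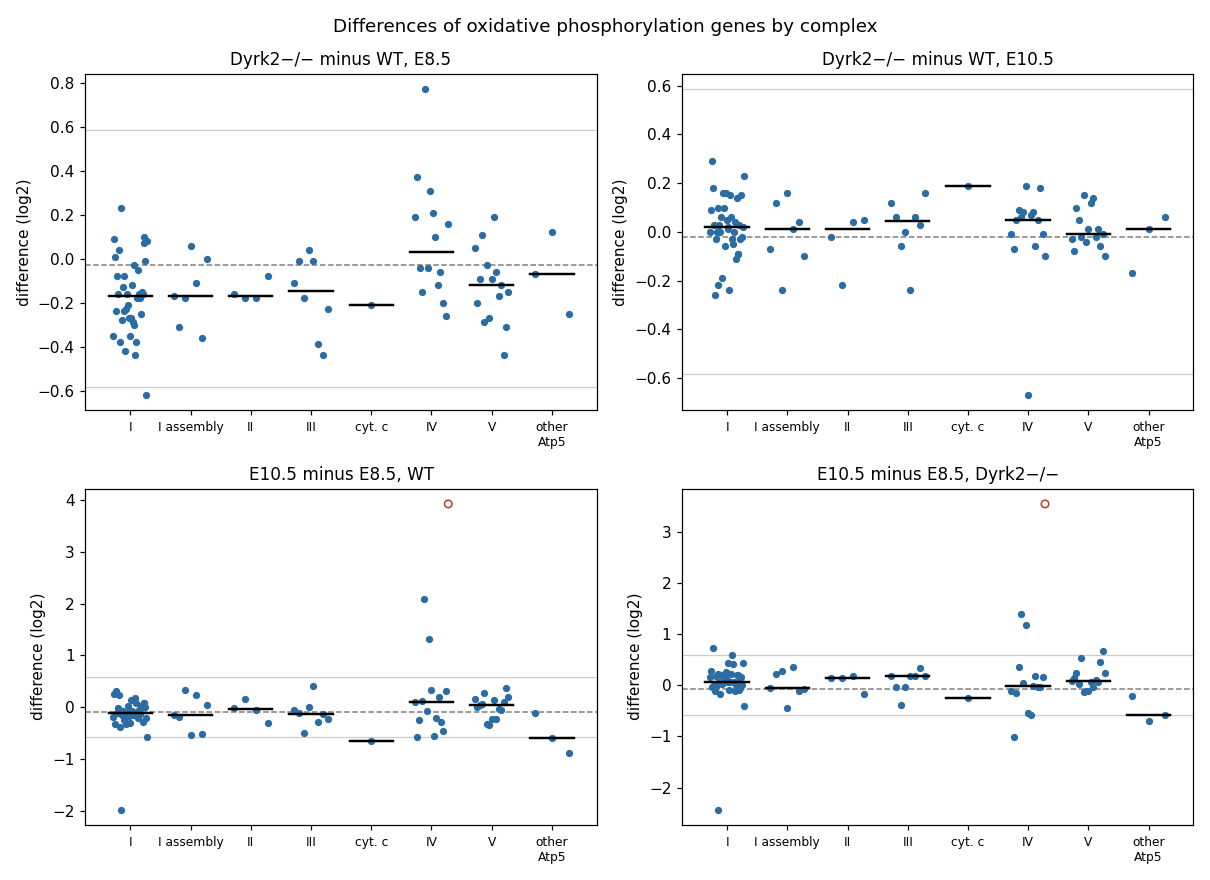
Each point is 1 oxidative phosphorylation gene, placed by complex on the horizontal axis and by its log2 difference between 2 arrays on the vertical axis, in 1 panel per comparison with its own scale; black bars are medians of a complex, dashed lines the median of all genes, grey lines 1.5-fold and the open circle *Cox8b*, not above background at E8.5. Most points lie within 1.5-fold; between genotypes at E8.5 most members of complexes I, II, III and V lie below the dashed line, and those of complex IV lie on both sides of it.

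Complex I, the NADH dehydrogenase, had 38 genes tested in every comparison. Its median between genotypes at E8.5 was −0.17, with 31 of 38 lower on the array labelled *Dyrk2*-/-, and −0.14 relative to all genes, between −0.21 and −0.08 under the other scalings. At E10.5 the relative median was 0.04, and between 0.01 and 0.04 under the other scalings. Between stages the median relative to all genes was −0.03 in WT, where the sign turned to 0.14 with quantile normalization, and 0.14 in *Dyrk2*-/-. By limma, 2 of the 38 rose and 2 fell, against 42.2% of all genes called.

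*Ndufv2* encodes an iron-sulfur subunit of the NADH-oxidising arm. It read 4.88 and 4.25 at E8.5, then 4.67 and 4.69 at E10.5. The array labelled *Dyrk2*-/- at E8.5 is the low one, 1.54-fold below WT, while the pair at E10.5 differed by 0.02. A second probe of the gene, much dimmer and in another place of the gene (chr17:66442062-66442121, mm9, against chr17:66428794-66428853), gave −0.22 at E8.5, and the mean over both gave −0.42, below the 1.5-fold threshold. With quantile normalization the gene was not called either. The difference was larger with spike-in scaling (−1.17) and without scaling (−0.88).

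*Ndufa4l2* showed the largest fall between stages among members in both genotypes. Its paralogue *Ndufa4* was first assigned to complex I and is now regarded as a subunit of complex IV; *Ndufa4l2* is known as a target of hypoxia-inducible factor. It read 0.44 and 0.67 at E8.5, then −1.54 and −1.76 at E10.5. Both E8.5 arrays were high and both E10.5 arrays low, 3.94-fold in WT and 5.38-fold in *Dyrk2*-/- (limma log2 −2.2, adjusted p = 2.04e-05). The gene's second probe was not above background on any of the 4 arrays. *Ndufa4* read 5.29 and 4.92 at E8.5, then 4.92 and 4.92 at E10.5, so WT at E8.5 is the high array.

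*Ndufv3*, an accessory subunit beside *Ndufv1* and *Ndufv2*, read 5.62 and 5.7 at E8.5, then 5.05 and 5.29 at E10.5. It fell in both genotypes (log2 −0.49, limma adjusted p = 0.0078), but its second, much dimmer probe gave 0.07 in WT and −0.6 in *Dyrk2*-/-. By the brightest probe the fall in *Dyrk2*-/- turned to a rise with spike-in scaling. *Ndufa12*, an accessory subunit, read 5.49 and 5.25 at E8.5, then 5.79 and 5.97 at E10.5, and rose (0.51, adjusted p = 0.0119). *Ndufb9*, an accessory subunit of the membrane arm, read 4.99 and 4.54 at E8.5, then 5.16 and 5.13 at E10.5, and rose (0.38, adjusted p = 0.0403). For *Ndufa12* and *Ndufb9* the lowest array is the one labelled *Dyrk2*-/- at E8.5, and the stage difference was 0.72 and 0.59 in *Dyrk2*-/- against 0.31 and 0.18 in WT, a difference between genotypes that was not tested.

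Core subunits did not pass for stage where named: *Ndufs1*, the largest iron-sulfur subunit, read 4.7 and 4.65 at E8.5, then 4.49 and 4.53 at E10.5. *Ndufa1*, an X-linked accessory subunit, read 5.13 and 4.78 at E8.5, then 4.93 and 4.93 at E10.5. In both, the WT array at E8.5 holds the highest value. *Ndufa9* read 3.61 and 3.18 at E8.5, then 3.4 and 3.21 at E10.5, and *Ndufb6* read 4.26 and 3.97, then 4.11 and 3.87, with the array labelled *Dyrk2*-/- the lower one at each stage.

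Assembly factors of complex I help to build the complex and are not part of it. Their median between genotypes at E8.5 was −0.17, with 5 of 7 lower, and 0 of 7 were called in any of the 4 comparisons, where 9.66%, 6.77%, 37.6% and 31.4% of all genes were. *Ndufaf4* read 2.18 and 2.24 at E8.5, then 1.64 and 1.8 at E10.5, and fell (limma log2 −0.48, adjusted p = 0.0113). Its fall in *Dyrk2*-/- turned to a rise with spike-in scaling. *Ndufaf3* read −0.13 and −0.31 at E8.5, then 0.21 and −0.04 at E10.5, higher at E10.5 in both genotypes, and did not pass (0.3, adjusted p = 0.123).

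Complex II, the succinate dehydrogenase of the citric acid cycle, had 4 of 4 genes lower on the array labelled *Dyrk2*-/- at E8.5 and a median of −0.17, or −0.14 relative to all genes, between −0.19 and −0.09 under the other scalings. The flavoprotein *Sdha* read 4.76 and 4.6 at E8.5, then 4.75 and 4.72 at E10.5. The iron-sulfur subunit *Sdhb* read 5.51 and 5.32, then 5.67 and 5.45. The membrane anchor *Sdhc* read 3.67 and 3.49, then 3.62 and 3.67. These 3 genes spanned at most 0.35 log2 units over the arrays. The other anchor, *Sdhd*, read 5.18 and 5.1, then 4.87 and 4.93, both E8.5 arrays being the higher. At E8.5 the 3 further, dimmer probes of *Sdha* differed the other way, by 0.02, 0.19 and 0.35, and the further probe of *Sdhb* by −0.02. None of the 4 passed for stage by limma, against 42.2% of all genes, and at an unadjusted p under 0.05 there were 0.

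Complex III, the cytochrome bc1 complex, had 7 of 8 genes lower on the array labelled *Dyrk2*-/- at E8.5, with a median of −0.15, or −0.12 relative to all genes, between −0.18 and −0.06 under the other scalings. At E10.5 the relative median was 0.06, and between 0.03 and 0.06 under the other scalings. The Rieske protein *Uqcrfs1* read 4.73 and 4.34 at E8.5, then 4.45 and 4.51 at E10.5. *Uqcrq*, a small subunit, read 6.24 and 6.01, then 6.02 and 6.18. The core proteins *Uqcrc1* and *Uqcrc2* lie on the matrix side. *Uqcrc1* read 4.88 and 4.92, then 4.88 and 4.88, a range of 0.04, the smallest of complex III. *Uqcrc2* read 4.68 and 4.67, then 5.09 and 4.85, both E10.5 arrays being higher, with WT the highest, and did not pass (0.3, adjusted p = 0.0655). Its difference in WT was 0.41, but past 1.5-fold with quantile normalization or the deposited table (0.67 each), normexp (0.61) and no scaling (0.6).

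*Uqcrb*, which lies near the ubiquinone-binding site, read 5.15 and 4.97 at E8.5, then 4.65 and 4.59 at E10.5. It fell (limma log2 −0.44, adjusted p = 0.0119), but in *Dyrk2*-/- its fall turned to a rise with spike-in scaling. Between genotypes at E8.5 its probes gave unlike values: the brightest gave −0.18, and another, dimmer probe gave −0.7, or 1.63-fold lower on the array labelled *Dyrk2*-/-. Between stages that probe gave −0.44 in WT and 0.19 in *Dyrk2*-/-, so the fall in *Dyrk2*-/- was not seen with it. The probes overlap on the minus strand (chr13:67001654-67001713 and chr13:67001691-67001750, mm9), and both sequences are given because they measure 1 transcript and differ in value. Capitals mark 12 bases found in both; the base before them differs, and the bases before that match again up to the end of the overlap.
brightest *Uqcrb* probe: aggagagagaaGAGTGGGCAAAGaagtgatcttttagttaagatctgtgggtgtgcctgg
dimmer *Uqcrb* probe: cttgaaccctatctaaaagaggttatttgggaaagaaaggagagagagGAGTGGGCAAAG

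Cytochrome c carries electrons from complex III to complex IV, and once released from mitochondria takes part in apoptosis. *Cycs* read 6.53 and 6.31 at E8.5, then 5.87 and 6.05 at E10.5. Both E8.5 arrays were above both E10.5 arrays, 1.58-fold in WT and 1.2-fold in *Dyrk2*-/- (limma log2 −0.46, adjusted p = 0.0187). The difference in WT was under 1.5-fold with quantile normalization or the deposited table (−0.42 each), normexp (−0.54) and no scaling (−0.48). In *Dyrk2*-/- the difference ran from −0.26 to 0.38 over the scalings, so its direction depended on the scaling. The second probe of the gene gave −0.8 in WT and −0.22 in *Dyrk2*-/-, in the same direction as the first. The difference between the genotypes in the size of this fall was not tested.

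Complex IV, cytochrome c oxidase, had 3 of 15 tested genes called between stages in WT (20.0%, against 37.6% of all genes) and 4 of 15 in *Dyrk2*-/- (26.7%, against 31.4%), so its share is not above that of all genes. Its median between genotypes at E8.5 was 0.03, with 7 of 14 tested genes higher and 7 lower, and 0.06 relative to all genes, a sign that turned to −0.03 with normexp. At E10.5 the relative median was 0.07, and between 0.04 and 0.07 under the other scalings. By limma, 2 of the 14 genes above background on all arrays rose between stages and 2 fell, against 40.2% of all such genes called. In its isoform pairs the widely expressed member varied by less than 1.5-fold over the arrays, on the 75th percentile scale, in each of the pairs named next.

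*Cox6a2* is the isoform of heart and skeletal muscle. It read −1.19 and −0.42 at E8.5, then 0.91 and 0.97 at E10.5 (chr7:135349160-135349219, mm9). Both E10.5 arrays were high and the WT array at E8.5 was the lowest, 1.7-fold below the array labelled *Dyrk2*-/-. From E8.5 to E10.5 the signal rose 4.28-fold in WT and 2.61-fold in *Dyrk2*-/- (limma log2 1.74, adjusted p = 0.00012). The difference between genotypes at E8.5 was 0.77, and was under 1.5-fold without scaling (0.51) and with spike-in scaling (0.22). Its widely expressed counterpart *Cox6a1* read 7.6 and 7.45 at E8.5, then 7.72 and 7.81 at E10.5.

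*Cox6b2*, the isoform known from testis, read −0.6 and −0.28 at E8.5, then 0.71 and 0.9 at E10.5. It rose 2.47-fold in WT and 2.27-fold in *Dyrk2*-/- (limma log2 1.24, adjusted p = 0.000174), the E10.5 arrays lying above the E8.5 arrays. *Cox6b1*, its counterpart, read 2.82 and 2.78, then 2.74 and 2.82, the smallest range of complex IV at 0.08. *Cox8b*, the isoform of heart and skeletal muscle, was not above background on either E8.5 array and read −3.01 in WT and −3.11 in *Dyrk2*-/- at E10.5. Against the dimmest signal called above background on the E8.5 array, this is at least 3.5-fold higher in WT and at least 2.67-fold in *Dyrk2*-/-, and at least 3.06-fold over both genotypes. No limma p is given for it, since its E8.5 readings were not above background. *Cox8a*, expressed in most tissues, read 6.39 and 6.55, then 6.71 and 6.7.

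Other isoforms were lower at E10.5. *Cox4i2*, known from lung and induced at low oxygen, read −0.91 and −0.53 at E8.5, then −1.48 and −1.54 at E10.5. It fell 1.49-fold in WT and 2.02-fold in *Dyrk2*-/- (limma log2 −0.79, adjusted p = 0.00879), both E8.5 arrays being the higher. *Cox4i1*, the common isoform, read 6.34 and 6.53, then 6.44 and 6.42. *Cox7a1*, a muscle isoform, read 1.25 and 1.36, then 0.7 and 0.77. It fell by log2 differences of −0.55 and −0.58, both just under 1.5-fold (limma log2 −0.57, adjusted p = 0.0073). The fall of *Cox7a1* in *Dyrk2*-/- turned to a rise with spike-in scaling. Its counterpart *Cox7a2* read 5.81 and 5.7, then 5.6 and 5.68, and the related *Cox7a2l*, which takes part in joining complexes III and IV, read 5.61 and 5.55, then 5.8 and 5.74.

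*Cox6c* was the 1 member called between genotypes at E10.5. It read 5.23 and 5.44 at E8.5, then 5.56 and 4.9 at E10.5 (chr15:35861751-35861810, mm9). The array labelled *Dyrk2*-/- at E10.5 is the lowest of the 4, 1.59-fold below WT, while at E8.5 the order was the reverse, with a difference of 0.21. That change of order was not tested, and with spike-in scaling the E10.5 difference was −0.5, under 1.5-fold. Only 1 probe represents the gene. *Cox5a*, a structural subunit, read 6.81 and 6.77, then 6.55 and 6.61, with the E8.5 arrays the higher.

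**Figure D2:**
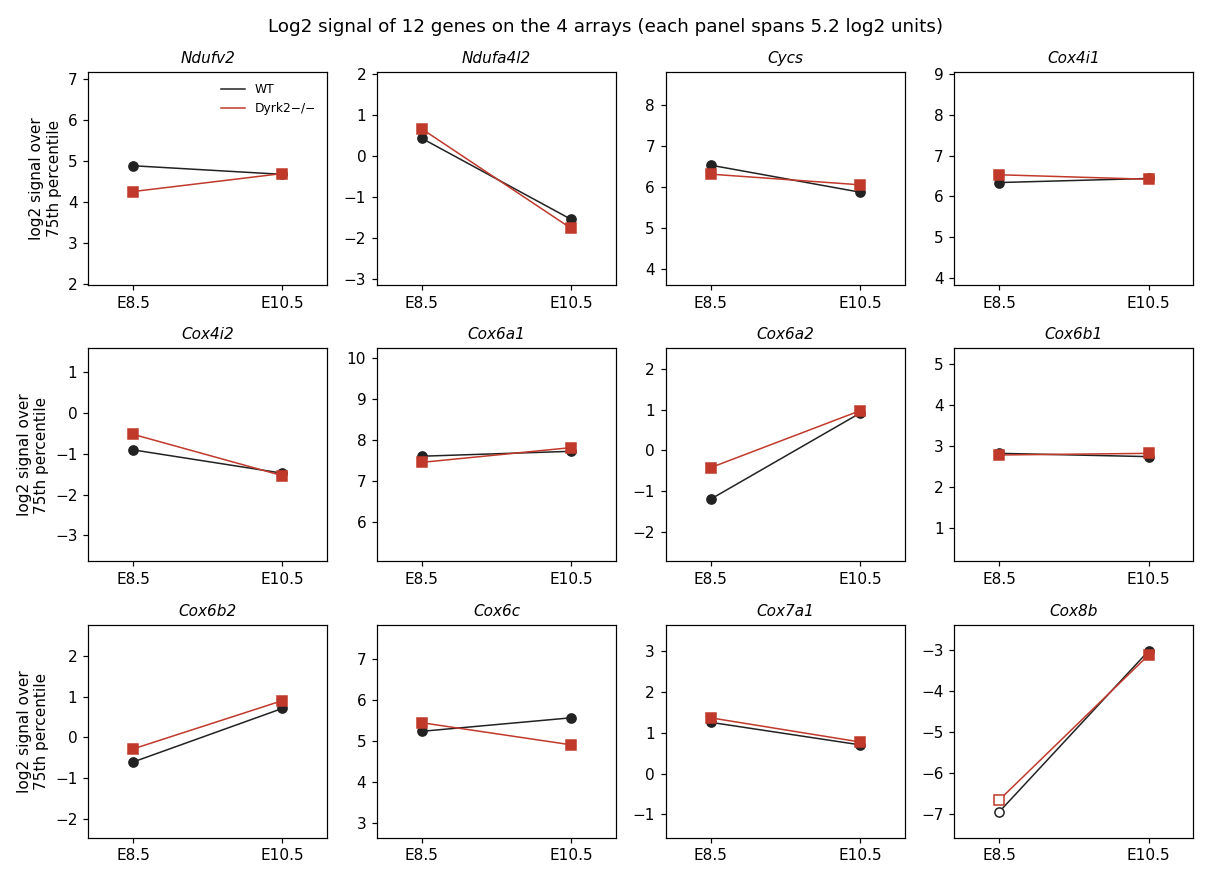
Each panel shows 1 gene, with embryonic day on the horizontal axis and log2 signal relative to the 75th percentile of the array on the vertical axis, every panel spanning the same number of log2 units; circles are WT, squares *Dyrk2*-/-, 1 array each, and open symbols are not above background. *Cox6a2*, *Cox6b2* and *Cox8b* lie higher at E10.5, *Ndufa4l2*, *Cox4i2* and *Cox7a1* lower, and *Cox4i1*, *Cox6a1* and *Cox6b1* vary by less than 1.5-fold.

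Complex V, the ATP synthase, had 12 of 15 genes lower on the array labelled *Dyrk2*-/- at E8.5, with a median of −0.12, or −0.09 relative to all genes, between −0.15 and −0.07 under the other scalings. At E10.5 the relative median was 0.0, and −0.04 with the deposited table. Between stages it was 0.13 in WT and 0.15 in *Dyrk2*-/-, and it stayed positive with quantile normalization and with normexp. By limma 2 of 15 rose and 0 fell, against 42.2% of all genes called, with 2 at an unadjusted p under 0.05.

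*Atp5l*, subunit g of the membrane part, read 6.07 and 5.75 at E8.5, then 6.44 and 6.43 at E10.5. It rose 1.3-fold in WT and 1.59-fold in *Dyrk2*-/- (log2 0.52, adjusted p = 0.00784), and a second probe gave 0.27 and 0.75 in the same direction. *Atp5e*, the epsilon subunit of the central stalk, read 5.88 and 5.59, then 6.15 and 6.13, and rose (0.4, adjusted p = 0.0234). In both genes the array labelled *Dyrk2*-/- at E8.5 is the lowest of the 4 and the E10.5 arrays are nearly equal.

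By brightest probes the catalytic head varied less. *Atp5a1*, the alpha subunit, read 6.85 and 6.9 at E8.5, then 7.01 and 6.98 at E10.5. *Atp5b*, the catalytic beta subunit, read 7.26 and 7.06, then 7.27 and 7.19. Between stages a dimmer probe of *Atp5b* gave −0.42 and −0.31, and another −0.04 and −0.21. The dimmer probe of *Atp5a1* gave −0.11 and 0.1. The ring of c subunits that turns with the proton flow is encoded by *Atp5g1*, *Atp5g2* and *Atp5g3*, which share the mature protein. *Atp5g1* read 6.41 and 6.14, then 6.06 and 6.02. *Atp5g2* read 7.31 and 7.21, then 7.09 and 7.09, and *Atp5g3* read 6.29 and 6.48, then 6.43 and 6.55. *Atp5g1* and *Atp5g2* were thus highest on the WT array at E8.5 and *Atp5g3* lowest there, and none of the 3 passed for stage (adjusted p = 0.13, 0.255 and 0.476, log2 −0.24, −0.17 and 0.1).

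Of the names outside the enzyme, *Atp5s* and *Atp5sl* are listed by RefSeq as *Dmac2l* and *Dmac2*. *Atp5sl*, a factor for complex I assembly, read 3.55 and 3.3 at E8.5, then 2.66 and 2.72 at E10.5, and fell 1.85-fold in WT and 1.49-fold in *Dyrk2*-/- (log2 −0.74, adjusted p = 0.00168). Its second probe gave −0.71 and −0.79. In *Dyrk2*-/- the fall of *Atp5sl* turned to a rise with spike-in scaling. *Atp5s*, dim on every array, read −1.86 and −1.73, then −2.45 and −2.45, and fell (−0.66, adjusted p = 0.0348), though in WT by less than 1.5-fold with normexp (−0.45) and without scaling (−0.41). In both genes the 2 E8.5 arrays were the higher.

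Several members have further probes. Of 43 further probes above background on all arrays, the direction matched that of the brightest probe of the gene in 28 for the genotypes at E8.5, 21 at E10.5, 25 between stages in WT and 25 in *Dyrk2*-/-. Where a difference lies within the spot error its direction carries no information. Some exceed that error, as in the examples that follow, but how many do was not counted. Between stages in WT, the further probe of *Cycs* gave −0.8, in the direction of the brightest (−0.66). A dim further probe of *Ndufb2* gave 0.86, against −0.17 for the brightest.

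Other mitochondrial genes are set beside the members, with scaling to the 75th percentile; their direction under other scalings was not analysed here, nor was that of the marker lists. Their counts by limma stand against 42.2% of all genes called for stage, 2996 higher and 3760 lower of 16012; a share near that is not a result about a list. Of 39 assembly factors outside the name rule, 4 rose between stages and 10 fell by limma; *Cox11*, which delivers copper to complex IV, fell (log2 −0.83, adjusted p = 0.00205) and *Cox14* rose (0.66, adjusted p = 0.00182). Of 77 mitochondrial ribosome genes 1 rose, *Mrpl34* (0.85, adjusted p = 0.000565), and 21 fell. Of 17 genes of the citric acid cycle and pyruvate dehydrogenase 0 rose and 2 fell, *Pdha1* (−0.78, adjusted p = 0.000786) and *Suclg2* (−0.64, adjusted p = 0.00388). Between genotypes at E8.5 the medians relative to all genes were −0.13 for the assembly factors, −0.12 for the ribosome and −0.0 for the cycle.

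Mitochondrial DNA encodes core subunits of complexes I, III, IV and V, and 11 of its 13 such genes had probes. By limma 0 rose and 1 fell, *ND6* (log2 −0.76, adjusted p = 0.00248). *CYTB*, the cytochrome b of complex III, read 6.63 and 6.05 at E8.5, then 6.71 and 6.7 at E10.5, the array labelled *Dyrk2*-/- at E8.5 being the low one, 1.49-fold below WT. Of 10 carriers and channels of the mitochondrial membranes 8 were tested, 2 rose and 1 fell: the uncoupling protein genes *Ucp2* (2.11, adjusted p = 3.89e-05) and *Ucp3* (1.84, adjusted p = 4.81e-05) rose, and *Vdac2*, an outer-membrane channel, fell (−0.37, adjusted p = 0.0272).

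Of 13 regulators of mitochondrial genes, 1 rose and 3 fell between stages, again against 42.2% of all genes. The coactivator *Ppargc1a* read −1.38 and −1.6 at E8.5, then −0.66 and −1.06 at E10.5, and rose (log2 0.63, adjusted p = 0.0185). The related coactivator *Pprc1* fell (−0.79, adjusted p = 0.000623), as did *Tfam*, which packages mitochondrial DNA (−0.56, adjusted p = 0.00861), and *Polg*, its polymerase (−1.17, adjusted p = 9.71e-05). For genotype limma called 0 genes of these 6 lists, and at an unadjusted p under 0.05 there was 1 assembly factor, 1 ribosome gene and 2 carriers.

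Markers of cell types differed between the arrays, and their part in the results was not tested. Counts by limma for these lists, here and below, stand against 42.2% of all genes called for stage. For genotype they stand against 750 of 16012 genes at an unadjusted p under 0.05. Of erythroid genes, 10 of 10 had the higher signal in *Dyrk2*-/- at E8.5, by a median log2 of 4.6, against 7130 of all 15790 genes. At E10.5 it was 10 of 10, by 0.88, against 7450 of 16123. Their summed signal, relative to the 75th percentile, was 17.4 and 383 at E8.5, then 1380 and 1600 at E10.5, with *Hbb-bh1* the brightest of the list at E8.5 and *Hbb-y* at E10.5. *Hbb-bh1* read 3.37 and 7.15 at E8.5, then 8.19 and 8.4 at E10.5. *Klf1* was not above background on the WT array at E8.5. By limma the 9 genes above background on all arrays rose between stages, and 0 of the 9 passed for genotype, with 9 of 9 at an unadjusted p under 0.05 and the smallest adjusted p, 0.0569, for *Epor*. The array with low erythroid signal, WT at E8.5, is the array where 45 of the 90 members were highest (against 36.3% of all genes), though with quantile normalization this was 14 (against 30.1%).

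Cardiac muscle markers stand beside *Cox6a2*, *Cox7a1* and *Cox8b*. Their sum was 298 and 305 at E8.5, then 181 and 181 at E10.5. *Myh6* was the brightest, except *Myl4* in WT at E10.5, and 10 of 10 were above background on each array. By limma 2 rose and 8 fell, against 42.2% of all genes called for stage. Skeletal muscle markers summed to 3.47 and 4.9, then 7.68 and 4.67, with *Acta1* the brightest at E8.5 and *Tnnc2* at E10.5. *Myog* and *Myod1* were above background at E10.5 only, and *Ckm* and *Myf5* on 0 arrays; of the 2 above background on all arrays, *Tnnc2* rose and *Acta1* fell by limma.

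Yolk sac endoderm markers summed to 42.5 and 28.2 at E8.5, then 20.5 and 16.9 at E10.5. *Rbp4* was the brightest at E8.5 and *Afp* at E10.5, and *Apoa4* was not above background at E10.5. At E8.5, 6 of 6 had the lower signal in *Dyrk2*-/-, against 8660 of all 15790 genes. By limma 1 of the 5 above background on all arrays rose and 4 fell. Trophoblast and decidua markers, 5 of 6 on the array, summed to 1.69 and 2.16, then 0.501 and 0.574, with *Plac1* the brightest, except *Ascl2* in *Dyrk2*-/- at E8.5, and *Tpbpa* above background on 0 arrays; *Plac1* and *Ascl2*, the 2 above background on all arrays, fell by limma. Markers of the embryo proper, 10 of 10 above background on each array, summed to 41.7 and 40.1, then 44.3 and 37.0. The brightest was *Sox2* in WT at E8.5, *Meox1* in *Dyrk2*-/- at E8.5 and *Tubb3* at E10.5, and by limma 3 rose and 4 fell.

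Promoters of the members were compared with 3 motifs known from mitochondrial genes. RefSeq promoters (GRCm38.p6, 300 bases around the start) were found for 76 of the 93. The core of nuclear respiratory factor 1, GCGCANGCG on either strand, was in 23 of the 76 (30.3%) and in 6.35% of 27025 genes with 1 promoter each. The ETS core bound by GABP, CCGGAAG, was in 17 (22.4%) against 9.08%, and the YY1 core, AAGATGGC, in 11 (14.5%) against 2.86%. At least 1 of the 3 was in 43 (56.6%) against 16.3%. A match describes letters and does not show binding.

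By complex, at least 1 motif was in 18 of 33 promoters of complex I, 3 of 3 of complex II, 3 of 5 of complex III, 3 of 12 of complex IV and 11 of 14 of complex V. Among members past limma for stage it was 5 of 11, and 38 of 65 among the others. The 11 include *Cox8b*, not above background at E8.5, and the others include *Cox7b2*, which was not tested. The promoters of *Cycs* (chr6:50566520-50566819, minus strand), which fell, and *Atp5l* (chr9:44920693-44920992, minus strand), which rose, both hold the first core and are shown for that reason; that of *Cox8b* holds none of the 3. Capitals mark the matches, which for *Atp5l* include the ETS core on the other strand, CTTCCGG.
*Cycs* promoter: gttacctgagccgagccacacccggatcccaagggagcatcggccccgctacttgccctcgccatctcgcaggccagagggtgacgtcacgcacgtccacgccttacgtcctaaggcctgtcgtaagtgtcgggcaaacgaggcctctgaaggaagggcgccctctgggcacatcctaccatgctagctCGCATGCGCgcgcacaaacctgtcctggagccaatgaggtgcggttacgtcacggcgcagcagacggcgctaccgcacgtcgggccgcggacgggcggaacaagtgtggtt
*Atp5l* promoter: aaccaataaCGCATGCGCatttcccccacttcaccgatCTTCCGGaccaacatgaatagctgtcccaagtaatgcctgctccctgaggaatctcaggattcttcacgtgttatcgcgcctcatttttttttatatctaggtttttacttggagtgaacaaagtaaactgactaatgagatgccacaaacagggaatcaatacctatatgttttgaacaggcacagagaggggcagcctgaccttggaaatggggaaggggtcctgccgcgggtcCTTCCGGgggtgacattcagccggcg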

How the data were processed

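Members and lists were chosen with earlier results of these data known. The deposited scanner files give an intensity per spot, background-subtracted and detrended within the array by Agilent Feature Extraction (10.7.1.1 per the file headers, 9.5.1.1 per the labels). The processed table the authors deposited holds an intensity per probe, and its 4 columns share a distribution; it differed from quantile-normalized scanner values by a median of 0.006 log2 units. Control spots and spots that the software marked as outliers were left out, log2 signals averaged over the spots of a probe, values set relative to the 75th percentile, and each gene given its brightest probe. No spot was saturated. Spot errors came from 300 probes with 10 or more spots. Stage and genotype were fitted with limma 3.58.1 (eBayes with an intensity trend) in R 4.3.3 with data.table (1.17.8); counts, motifs and figures used Python 3.11.15, pandas 2.3.3, numpy 2.4.6 and matplotlib 3.10.9. A fold against an array where a gene was not above background was computed against the dimmest signal called above background there.

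Named genes were one or more members of each complex and its isoform pairs, members called between genotypes and members past limma. Also named were the 5 largest rises and the 5 largest falls between stages in WT, among members above background on both arrays. That ranking leaves out *Cox8b*. *Ndufa9*, *Ndufb6* and genes of the other lists were named after their values were seen. Alternatives were quantile normalization, normexp (offset 50), scaling to 7 spike-in probes, no scaling, the deposited table, other background filters, the mean over a gene's probes, a 2-fold threshold, a Z-score over 2 and moderation without the trend. Lists were markers of erythroid cells, cardiac and skeletal muscle, yolk sac, trophoblast and embryo, and assembly factors, mitochondrial DNA, the citric acid cycle, carriers, regulators and the mitochondrial ribosome. 1 further gene listed beforehand is not reported here and enters no count or sum of its list.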

Additional observations from a re-analysis of the deposited data

How the results depend on the processing

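Of the counts of called members, that between genotypes at E8.5, 2 as reported, was 1 with quantile normalization, the deposited table or the mean over probes, 64 with spike-in scaling, where 49.9% of all genes were called, 11 without scaling, where 16.2% were, and 0 with a 2-fold threshold or a Z-score over 2. The count at E10.5, 1 as reported, was 0 with spike-in scaling, a 2-fold threshold or a Z-score over 2. Between stages in WT, 7 became 11 with spike-in scaling (39.0% of all genes), 4 at 2-fold and 1 with the Z-score. In *Dyrk2*-/-, 9 became 67 with spike-in scaling (54.1% of all genes), 16 without scaling (35.3%), 5 at 2-fold and 2 with the Z-score. The relative median between stages in WT, −0.01, became 0.16 with quantile normalization and 0.16 with the deposited table. The 16 members past limma for stage became 30 with quantile normalization (40.0% of all genes called), 30 with the deposited table (40.3%), 4 with spike-in scaling (10.8%) and 8 without the intensity trend (27.7%). Spike-in scaling and no scaling shift all genes of a comparison by 1 constant, so their counts of 1.5-fold calls move with that shift. Higher thresholds call fewer genes by construction. The cause of the other changes, and of the shift itself, was not tested. The count of 0 members for genotype by limma held under every alternative run, while all genes called for genotype went from 0 to 318 without scaling and 332 with no filter. Signal over background limits *Cox8b*, *Cox7b2* and *Cox8c*, whose levels are unknown where they did not exceed it. With 1 array per group, embryo-to-embryo variation, litter and genotype cannot be told apart at a stage. Nor can sex and genotype at E10.5, or sex and stage in *Dyrk2*-/-. The limma fit assumes the same genotype difference at both stages.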
